A study of Mus musculus with 2 samples.

Results

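The serum amyloid A genes Saa1, Saa2, Saa3 and Saa4 and the short pentraxin genes Apcs and Crp were examined in livers of mice without apolipoprotein E. They were chosen by name, with earlier results of these data known. Every probe set whose platform annotation gives one of these 6 symbols was taken. This gave 8 of the 22690 probe sets, and all 6 genes of the 12393 with a name were represented. One Affymetrix array, called orujo after its sample title, holds RNA of animals given a diet high in fat to which the unsaponifiable fraction of olive oil had been added. The other, called olive, holds RNA of animals given a diet high in fat and rich in olive oil. The unsaponifiable fraction is the small part of an oil that is not made of fatty acid esters, such as sterols, squalene and tocopherols. The missing apolipoprotein E and the fat content were common to both, so neither array represents a normal mouse liver or a diet without olive oil products. The series asks how types of olive oil relate to hepatic gene expression. The labels give neither the sex, the age and the strain background of the animals nor how many contributed RNA to an array. With 1 array per diet there is no error between animals, no test of the diets and no p-value, and every ratio below compares these 2 arrays.

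Serum amyloid A proteins are small apolipoproteins that circulate on high-density lipoprotein. In mice, Saa1 and Saa2 are the acute phase forms that hepatocytes produce during inflammation, Saa3 is also made outside hepatocytes by macrophages and adipocytes, and Saa4 is a constitutive form. Pentraxins are ring-shaped plasma proteins of the liver that bind microbial surfaces and cell debris: Apcs encodes serum amyloid P component, the main acute phase pentraxin of the mouse, and Crp encodes C-reactive protein, which is a strong acute phase reactant in humans and a weak one in mice. Interleukin-6 and interleukin-1 induce the acute phase genes through STAT3, C/EBP and NF-κB transcription factors.

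The acute phase members Saa1, Saa2 and Apcs were higher on the orujo array by 2.57-fold to 5.96-fold, depending on the probe set. Saa3 was 1.91-fold higher, Crp was within 1.2-fold, and the constitutive Saa4 was lower in both of its probe sets. All 8 probe sets lay above the floor on both arrays. The floor was an intensity of 35.6, the 50th percentile of both arrays pooled, and the dimmest member value was 11.9 times as high. Probe sets that exceed it on both arrays are called measured.

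The promoters of Saa1, Saa2, Apcs and Saa4 are shown because they set the strongly differing genes beside a neighbour that did not share their direction. The sequences are RefSeq windows of build GRCm38.p6 that hold 250 bases before and 50 bases after the annotated start of transcription, written 5′ to 3′ on the gene's strand. They lie at chr7:46742931-46743230 on the minus strand for Saa1, at chr7:46751583-46751882 on the plus strand for Saa2, at chr1:172895005-172895304 on the minus strand for Apcs and at chr7:46732554-46732853 on the minus strand for Saa4. Capitals mark matches, on either strand, to a C/EBP core (TTGCNNAA), an NF-κB form (GG, any 3 bases, then TTTCC), an interleukin-6 response element core (CTGGGAA), a STAT form (TTCNNNGAA) and a TATA box (TATAAA).
Saa1: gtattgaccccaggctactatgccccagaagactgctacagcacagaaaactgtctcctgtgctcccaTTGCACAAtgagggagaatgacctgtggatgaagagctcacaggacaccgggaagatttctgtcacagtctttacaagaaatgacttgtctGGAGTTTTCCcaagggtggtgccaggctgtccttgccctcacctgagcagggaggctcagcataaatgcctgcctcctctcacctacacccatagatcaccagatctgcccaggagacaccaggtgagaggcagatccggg
Saa2: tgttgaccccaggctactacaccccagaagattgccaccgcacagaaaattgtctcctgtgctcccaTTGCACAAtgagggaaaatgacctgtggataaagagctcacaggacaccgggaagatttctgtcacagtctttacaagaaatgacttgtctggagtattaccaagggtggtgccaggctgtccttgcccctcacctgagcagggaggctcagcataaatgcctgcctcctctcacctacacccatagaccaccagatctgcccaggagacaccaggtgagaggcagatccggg
Apcs: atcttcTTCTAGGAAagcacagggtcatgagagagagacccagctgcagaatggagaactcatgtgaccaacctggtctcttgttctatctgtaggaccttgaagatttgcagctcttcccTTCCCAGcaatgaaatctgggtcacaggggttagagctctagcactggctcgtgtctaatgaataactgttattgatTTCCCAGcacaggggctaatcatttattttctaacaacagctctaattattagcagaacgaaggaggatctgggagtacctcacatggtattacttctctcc
Saa4: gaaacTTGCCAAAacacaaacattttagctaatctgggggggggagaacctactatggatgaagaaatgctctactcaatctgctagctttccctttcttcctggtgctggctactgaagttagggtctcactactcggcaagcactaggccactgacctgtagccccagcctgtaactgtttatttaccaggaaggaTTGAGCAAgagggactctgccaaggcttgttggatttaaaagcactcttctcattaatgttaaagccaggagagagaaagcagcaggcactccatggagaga

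The windows of Saa1 and Saa2 were nearly the same: 287 of 301 aligned columns were identical (95.3%), with 12 mismatches and 2 gap columns. The other pairs among the 6 genes ranged from 42.7% to 50.1% identity, so the shared sequence of Saa1 and Saa2 extends upstream of the start. Both carry the C/EBP letters TTGCACAA, in Saa1 at bases -182 to -175 and in Saa2 at -183 to -176. The NF-κB form matched in Saa1 as GGAGTTTTCC at bases -91 to -82. The aligned Saa2 bases are GGAGTATTAC, which differ by T6A and C9A (Saa1 base, position counted from 1 at the 5′ end of the site, Saa2 base), and no match was found in the Saa2 window. The Apcs window held the interleukin-6 response element core on the minus strand at -129 to -123 and at -52 to -46, and the STAT form at -244 to -236. Saa4, whose ratio was negative, also held 2 C/EBP matches, at -245 to -238 and at -52 to -45. In the windows not printed, Saa3 had 1 C/EBP match on the minus strand at -99 to -92, and Crp had 1 match, the TATA box at -31 to -26. No printed match overlapped another. Of 32851 promoter windows of 300 bases, 10.8% held the C/EBP core, 5.48% the NF-κB form, 11.1% the interleukin-6 response element core, 8.3% the STAT form and 13.6% the TATA box. The motif letters were chosen with the member sequences in view, so these shares do not test the member matches. The matches describe letters in the windows and are not evidence of binding.

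Among the inducible serum amyloid A genes, the probe set 1419075_s_at had an intensity of 7508.6 on the orujo array and 1259.9 on the olive array. That is a 5.96-fold higher value, a log2 ratio (orujo minus olive) of 2.58. The platform annotation assigns this probe set to Saa1. The other Saa1 probe set, 1450788_at, read 5175.9 on the orujo array and 2017.4 on the olive array, 2.57-fold higher (log2 ratio 1.36). The probe set of Saa2, 1449326_x_at, read 4291.9 on the orujo array and 858.1 on the olive array, 5.0-fold higher (log2 ratio 2.32). All 3 probe sets were therefore brighter on the orujo array, but the 2 assigned to Saa1 differed from each other by 1.22 in log2 ratio.

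The name of 1419075_s_at was checked against its transcript accession. The accession that the annotation lists for this probe set is a RefSeq transcript of Saa2 in the gene table of GRCm38.p6, the same transcript as that of 1449326_x_at, whereas the accession of 1450788_at is a transcript of Saa1. The gene table also records Saa1 as an older synonym of Saa2 and Saa2 as one of Saa1. Of 5884 probe sets with 1 symbol whose accession was found among the RefSeq transcripts, 16 (0.272%) had an accession of another gene than the annotation names, and this was one of them. With the probe sets assigned by accession, a choice made after seeing the values, Saa2 has 2 probe sets at log2 ratios of 2.58 and 2.32, and Saa1 has 1 at 1.36. The suffixes _s_at and _x_at mark probe sets designed on sequence common to several transcripts, so both of the higher values can hold signal from Saa1 as well as Saa2.

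The gap between the probe sets named Saa1 was wide for 1 gene on this array. Over 2057 genes with at least 2 measured probe sets, the difference in log2 ratio between the 2 brightest had an SD of 0.43, and 18 genes (0.875%), Saa1 included, differed by 1.22 or more. Among the 708 genes whose second probe set was over 4 times the floor, the SD was 0.39 and 6 genes (0.847%) differed by as much. Probe sets of a gene share RNA, labelling and hybridisation, so this spread holds no variation between animals. It joins measurement noise with any difference between transcripts or in gene assignment, which were not separated.

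**Figure D1:**
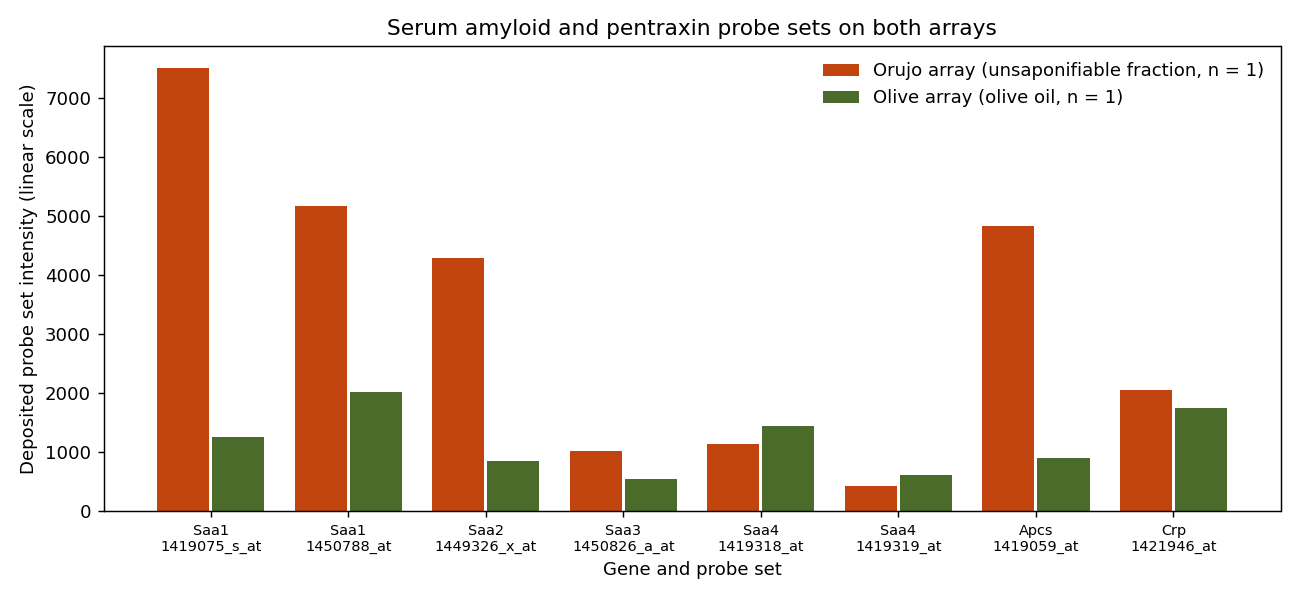
Deposited intensity (linear vertical axis) of the 8 serum amyloid and pentraxin probe sets (horizontal axis), with the orujo array at left and the olive array at right in each pair. Each bar is 1 array and has no error bar. Bars are to be compared only within a pair: the probe sets of Saa1, Saa2, Saa3, Apcs and Crp were higher on the orujo array, and both of Saa4 were lower.

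Saa3, the form also made by macrophages and adipocytes, read 1027 on the orujo array and 538.7 on the olive array with its single probe set, 1450826_a_at. It was 1.91-fold higher (log2 ratio 0.93), just under the 2-fold limit used for counts. Of 10 markers of macrophages and Kupffer cells, 9 were measured, with a median log2 ratio of 0.03 and a summed intensity of 3868.4 on the orujo array and 3643.2 on the olive array. Of 6 adipocyte markers with a probe set, 3 were measured, with sums of 2007 on the orujo array and 2710.9 on the olive array. Car3 alone, by its brightest probe set, gave 1853.3 of the sum on the orujo array and 2600.6 on the olive array. The log2 ratio of Car3 was -0.49 in that probe set and -1.22 in its other. Fabp4 went the other way, at 76.9 on the orujo array and 42.9 on the olive array. The defining adipocyte markers Adipoq and Lep were under the floor on both arrays. No marker with a probe set was listed at 0 on both arrays. In bulk liver RNA, a change in the number of cells of a type and a change in RNA per cell cannot be told apart.

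Saa4, the constitutive form, was lower in both of its probe sets. The probe set 1419318_at read 1136.3 on the orujo array and 1446.8 on the olive array, a log2 ratio of -0.35. The probe set 1419319_at read 425.3 on the orujo array and 611.3 on the olive array, a log2 ratio of -0.52. The values of this gene repeat each other more closely than those of most: the 2 ratios differed by 0.17, and 1328 of the 2057 genes with a second probe set (64.6%) differed by that much or more. Neither probe set passed 2-fold, and the ratio of the brighter, -0.35, is smaller in size than 0.42, the SD of log2 ratios over all measured genes.

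The pentraxin genes differed from each other. Apcs, with the single probe set 1419059_at, read 4829.2 on the orujo array and 902.2 on the olive array, 5.35-fold higher (log2 ratio 2.42). Crp, with the single probe set 1421946_at, read 2045.5 on the orujo array and 1743 on the olive array, 1.17-fold higher (log2 ratio 0.23). The Crp ratio is smaller than 0.30, the SD attributed to 1 probe set from the differences between probe sets of a gene. Of the long pentraxins and their relatives, Nptx1, a neuronal pentraxin, was the single measured gene, at a log2 ratio of -0.54. It read 36.9 on the orujo array, close to the floor, and 53.6 on the olive array. Ptx3, the inflammatory long pentraxin, was below the floor on both arrays, and Nptx2 exceeded it on the olive array alone, where it was at least 1.25-fold higher.

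Of the 8 member probe sets, 4 were higher on the orujo array by 2-fold or more and 0 were lower by as much. The background over 10462 measured probe sets was 1.33% for higher and 1.08% for lower values. Among the 1695 probe sets that were over 10 times the floor on both arrays, as all members were, these shares were 2.06% and 0.649%. Because the members were chosen with earlier results of these data known, their counts, ranks and median are description and not a test. Without probe sets of suffix _s_at, _x_at or _a_at, the count of members past 2-fold was 2, those of Apcs and of Saa1. This removed 1419075_s_at and the only probe sets of Saa2 and Saa3. The median log2 ratio was 1.15 over the member probe sets and -0.01 over all measured probe sets. By log2 ratio from the highest, 1419075_s_at ranked 7 of 10462, Apcs 11, Saa2 13, the other Saa1 probe set 48 and Saa3 168. Crp ranked 2480, and the Saa4 probe sets ranked 8719 and 9667. The members thus did not move as 1 group: Saa4 ranked in the lower part of the range, though neither of its probe sets passed 2-fold.

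**Figure D2:**
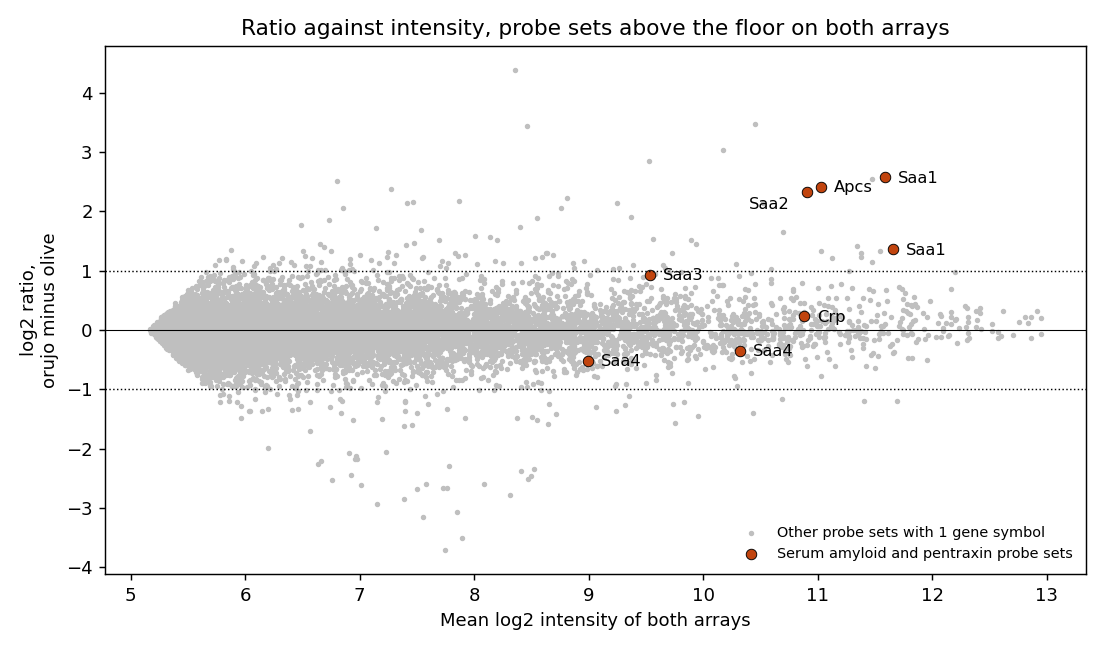
Log2 ratio (vertical axis, orujo minus olive) against the mean log2 intensity of both arrays (horizontal axis) for measured probe sets with 1 gene symbol. Each point is 1 probe set, and dotted lines mark 2-fold. The probe sets of Saa1, Saa2 and Apcs lie above the upper line at high intensity, Saa3 just under it, and Crp and Saa4 between the lines.

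Other measures differed between the same 2 arrays. The control probe sets for 18S ribosomal RNA had log2 ratios of 2.54 at the 5′ end, 2.48 in the middle and 0.34 at the 3′ end. Exocrine pancreas markers were at least 2-fold lower on the orujo array in 8 of 8 measured genes, with a summed intensity over 9 genes of 683.2 on that array and 5388.3 on the olive array. Of 9 neutrophil markers with a probe set, 4 were above the floor only on the orujo array and 0 only on the olive array. Those 4 lay near the floor and were higher there by at least 1.13-fold (Mmp8) to 1.71-fold (S100a8). Another 4 were measured, of which 1 had a positive ratio, with a median log2 ratio of -0.07. Sums over the 9 markers were 412.4 on the orujo array and 319.5 on the olive array. Of 6 intestinal epithelium markers, 2 were measured, with sums of 537.4 on the orujo array and 623.6 on the olive array. The part of these differences in the ratios of the serum amyloid and pentraxin genes was not tested. Hepatocyte markers fitted the labelled tissue: 9 of 9 were measured, at a median log2 ratio of 0.06, with sums of 48000.9 on the orujo array and 46012.6 on the olive array. Apoe, the gene these mice lack, read 99.6 on the orujo array and 102.7 on the olive array, and whether its probe set lies in the disrupted stretch could not be seen from the tables used, so it checks neither label.

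The genes beside the members in the genome did not share the larger ratios. The 4 Saa genes form a cluster on chromosome 7. The nearest genes with a measured probe set on one side were Saal1, at a log2 ratio of -0.26, and Sergef, at -0.25. On the other side lay Gtf2h1, which encodes a subunit of the transcription factor TFIIH, at 0.21 and Ldha, lactate dehydrogenase A, at 0.38. Tph1 and Ldhc, in the same neighbourhood, were below the floor on both arrays. Crp and Apcs are neighbours on chromosome 1. Tagln2 before Crp was at -0.02, and beyond Apcs the odorant receptor gene Olfr16 was at 0.21 and Ackr1, a chemokine-binding receptor of endothelium and red cells, at -0.39. Slamf8, Igsf9 and Fcer1a were below the floor on both arrays. No measured neighbour outside the members passed 2-fold, which for so few genes is close to the background of 1.33% higher and 0.979% lower. Some were near the floor: Sergef read 41.7 on the orujo array and 49.7 on the olive array, and Olfr16 read 50 and 43.2.

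The genes whose ratio was closest to a member's were found among 6640 measured genes, each represented by its brightest probe set. Likeness here rests on a single difference between 2 arrays. Fabp5, a fatty acid-binding protein gene, was nearest both to Apcs (difference in log2 ratio 0.05) and to Saa2 (0.05). Apcs and Saa2 were each other's second nearest, at 0.10. Nearest to Saa1 were Fastk, the Fas-activated serine/threonine kinase gene, at a difference of 0.002 and Ppargc1a, the transcriptional coactivator PGC-1α, at 0.02. Fastk read 94 on the orujo array and 36.7 on the olive array, the latter close to the floor.

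Other positive acute phase genes were mostly higher on the orujo array. Of 26 genes with a probe set, 25 were measured, 24 had positive ratios, and 9 passed 2-fold upward and 0 downward, against 1.33% higher and 0.979% lower among 6640 measured genes. This list and those below were chosen with earlier results of these data known. Their counts beside the background are therefore description and not a test. The median log2 ratio was 0.69, against -0.02 for all measured genes. The orosomucoid gene Orm2 read 1496.9 on the orujo array and 71.5 on the olive array, the highest of the list, and Mt2, Nnmt and Lcn2 followed at log2 ratios of 3.47, 3.43 and 3.04. Saa2 at 2.32 and Apcs at 2.42 lay between Mt1 at 2.55 and Orm1 at 2.14, and Saa1, by its brightest probe set at 1.36, lay nearer to Fgl1 at 1.29 and Lrg1 at 1.21. These 4 other genes were named after their values were seen. Crp was in the part of the range held by fibrinogen and haptoglobin, also named after their values were seen: Fga was at 0.30, Fgb at 0.40, Fgg at 0.37 and Hp at 0.14. By the brightest probe set, the lowest member was Cd14, the endotoxin coreceptor, at -0.26. Steap4 at 0.28 and Il1rn at 0.28, named after their values were seen, had a second probe set of the opposite sign, at -0.65 and -0.45.

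**Figure D3:**
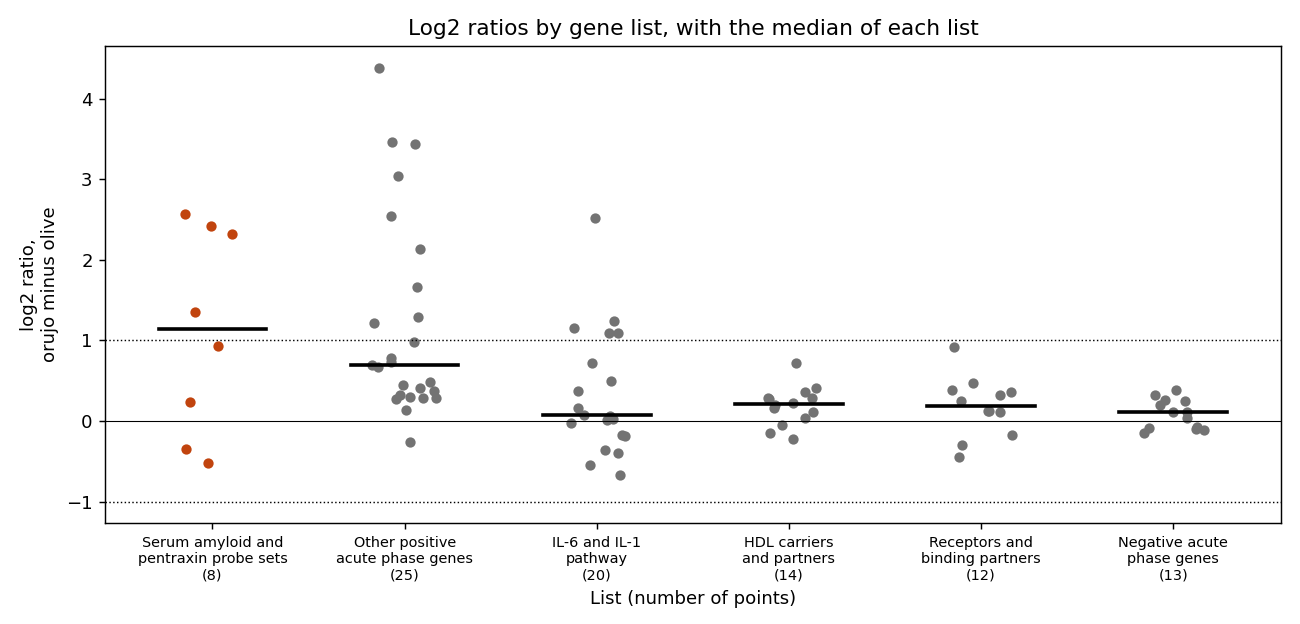
Log2 ratio (vertical axis, orujo minus olive) of the 8 serum amyloid and pentraxin probe sets and of the measured genes of 5 lists (horizontal axis, number of points in brackets). Points are spread sideways only for legibility, the bar is the median and dotted lines mark 2-fold. The median was 1.15 for the member probe sets, 0.69 for other positive acute phase genes and between 0.07 and 0.21 for the other 4 lists.

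Genes of the interleukin-6 and interleukin-1 pathway had ratios in both directions, and those past 2-fold were all higher on the orujo array. Of 27 with a probe set, 20 were measured, 13 had positive ratios, and 5 passed 2-fold upward and 0 downward, against 1.33% and 0.979% of all measured genes. The median log2 ratio was 0.07. The cytokine genes themselves were dim: Il6, Il1a and Tnf were below the floor on both arrays, and Il1b read 49 on the orujo array and 62.8 on the olive array. The 5 genes past 2-fold were Lepr, the leptin receptor, which signals through STAT3, at a log2 ratio of 2.52, Cebpd, a C/EBP factor, at 1.24, Lifr, the leukemia inhibitory factor receptor, at 1.16 (0.57 in its other probe set), Jak2, a receptor-associated kinase, at 1.09, and Pim1, a kinase gene induced by STAT signalling and named after its value was seen, at 1.09. These rest on dim probe sets in part. With the floor at the 75th percentile 1 gene of 11 measured passed 2-fold, and with the floor value added as a pseudocount 2 of 20 did. Among the other factors, also named after their values were seen, Cebpb was at 0.72, with 0.51 in its other probe set, and Cebpa at -0.39. Stat3 was at 0.50 in its brightest probe set and at -0.63 and 0.25 in its others, so its direction depends on the probe set. Socs3, the feedback inhibitor of interleukin-6 signalling, exceeded the floor on the orujo array alone and was at least 1.44-fold higher there. Nfkbiz, which encodes an inhibitor-like NF-κB cofactor, was the lowest at -0.67, with -0.17 in its other probe set. The brighter probe set was dim, at 45.9 on the orujo array and 73.1 on the olive array.

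The apolipoproteins and enzymes of high-density lipoprotein, the particle that carries serum amyloid A, gave 14 measured genes, of which 11 had positive ratios, and their median log2 ratio was 0.21. In either direction 0 passed 2-fold, a count close to the background of 1.33% higher and 0.979% lower for a list of this size. Apom, a high-density lipoprotein apolipoprotein, was the highest at 0.72, with 0.14 in its other probe set, and Apoc1 was the lowest at -0.22. Apoa1, the main protein of the particle and named after its value was seen, read 8485.5 on the orujo array and 7361.4 on the olive array, a log2 ratio of 0.21.

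Receptors and binding partners of serum amyloid A and pentraxins showed 9 positive ratios among 12 measured genes, 0 past 2-fold in either direction, also close to that background, and a median log2 ratio of 0.19. C4bp, the complement regulator C4b-binding protein, which binds serum amyloid P component, was the highest at 0.92. Tlr2, a receptor that serum amyloid A can activate, was the lowest at -0.45. It read 37 on the orujo array, close to the floor, and 50.6 on the olive array. Fpr2, which encodes a formyl peptide receptor that also binds serum amyloid A, exceeded the floor on the olive array alone and was at least 1.70-fold higher there. The genes of the C1q chains, which bind pentraxins and are made by macrophages, were at 0.33 for C1qa, 0.39 for C1qb and 0.47 for C1qc, all named after their values were seen.

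Negative acute phase genes, which the liver makes less of in inflammation, were within 1.5-fold by the brightest probe set of each gene. Of 13 measured genes, 8 had positive ratios and 0 passed 2-fold in either direction, close to the same background, with a median log2 ratio of 0.11 that was -0.02 under quantile normalization. Fetub, fetuin B, was the highest at 0.39, and Pon1, paraoxonase 1, which is also on the high-density lipoprotein list with Apoa1 and Apoa2, was the lowest at -0.15. Igf1, named after its values were seen, was at 0.25, with 0.30 and 0.83 in its other probe sets. Albumin and transthyretin, named after their values were seen, were at -0.07 for Alb and -0.09 for Ttr.

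The scaling of the arrays moved the member ratios by little. Under 4 other scalings, 2 other floors and a pseudocount, 1450788_at of Saa1 ranged from 1.21 to 1.37, Apcs from 2.33 to 2.43, Saa2 from 2.24 to 2.34 and Crp from 0.13 to 0.25 in log2 ratio. Saa3 ranged from 0.89 to 0.95 and did not reach 2-fold under any of these settings, and both Saa4 probe sets kept negative ratios in all of them.

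**Figure D4:**
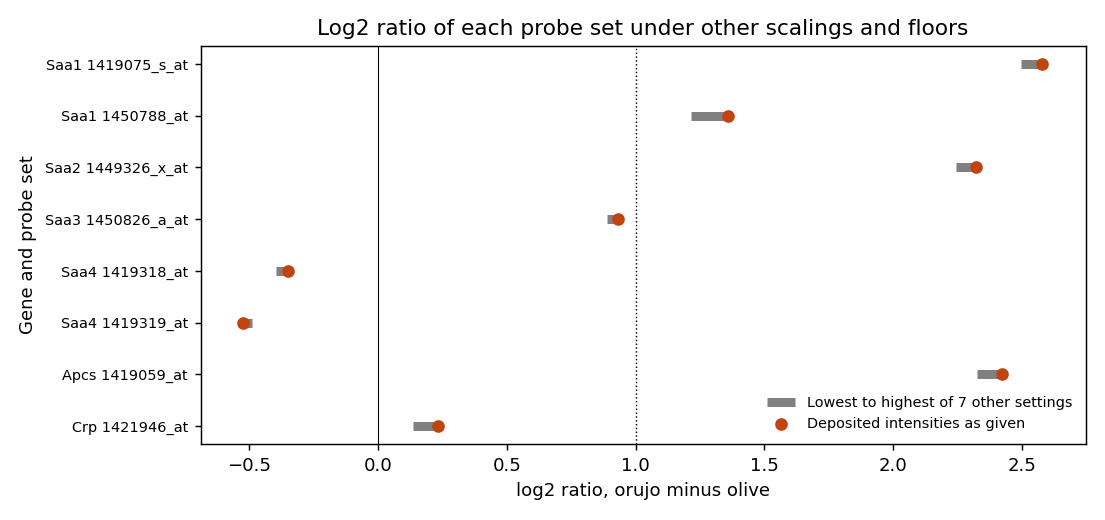
Log2 ratio (horizontal axis, orujo minus olive) of each serum amyloid and pentraxin probe set (vertical axis) from the deposited intensities as given (points) and its range over 7 other scalings, floors and a pseudocount (grey bars). The dotted line marks 2-fold. Saa3 stays between 0.89 and 0.95, and no bar crosses 0 or the 2-fold line.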

How the data were processed

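Liver RNA of each diet was hybridised to 1 Affymetrix array. Per the labels, targets were made from about 8 µg of total RNA. The values are the deposited probe set intensities on a linear scale. The authors' values share a scale, since each array has a 2% trimmed mean of 100.05. The sources used here do not name the summarising software.

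The 64 control probe sets were set apart. Intensities were used as deposited, values under the floor were raised to it, and log2 ratios were taken as unsaponifiable fraction minus olive oil. Of 22626 probe sets, 20380 had 1 gene symbol, 691 several and 1555 none; 20351 matched the RefSeq gene table of GRCm38.p6 by Entrez identifier, with no change of symbol. Only probe sets with 1 symbol were named. The brightest probe set, by mean log2 value, stands for a gene. Where 1 array alone exceeded the floor, the ratio is a bound against the floor. Arrays have no read depth, and having 1 per diet limits the precision.

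The members and lists were chosen with earlier results of these data known, and the promoter motifs with the sequences in view. Lists are described by counts and medians. The rule for names took all members, the highest and lowest measured gene of each list (with up to 3 more for the positive acute phase and interleukin lists), genes closest in ratio and genomic neighbours. Calculations were tested on simulated data. Python 3.11.15, numpy 2.4.6, pandas 2.3.3, statsmodels 0.14.6 and Biopython 1.88 were used.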

Additional observations from a re-analysis of the deposited data

How the results depend on the processing

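No paired analysis was possible because each diet has 1 array, and no replicate could be left out. The other scalings were division by the 2% trimmed mean, quantile normalization, loess (span 0.4) and a shift to a median ratio of 0. The floor was set at the 25th or the 75th percentile or used as a pseudocount, and genes were given the mean ratio of their probe sets. All probe sets of suffix _s_at, _x_at or _a_at, called shared below, were dropped. The limit was set to 1.5-fold or 3-fold, and, chosen after seeing the data, probe sets were assigned by accession. Of 155 recomputed log2 ratios and list medians, 154 moved by less than 0.30, the SD attributed to 1 probe set. The exception was Saa1, at 1.97 as the mean over the 2 probe sets that the annotation names Saa1. One of these, 1419075_s_at, has the accession of a Saa2 transcript. The count of member probe sets past the limit was 2 without shared probe sets, 5 at 1.5-fold and 3 at 3-fold, and 4 otherwise. Saa2 and Saa3 each have a single probe set, of suffix _x_at for Saa2 and _a_at for Saa3. Both genes gave no value when these suffixes were dropped. The median of the negative acute phase list changed sign under quantile normalization (-0.02) and without shared probe sets (-0.02). Of all measured probe sets, 139 were at least 2-fold higher and 113 lower; with the floor at the 25th percentile these were 349 and 375, at the 75th percentile 77 and 45, and with the pseudocount 82 and 67. In the interleukin list, the 5 genes past 2-fold became 1 at the 75th percentile floor and at the 3-fold limit, 2 with the pseudocount, 3 without shared probe sets, 4 with the mean over probe sets and 6 at the 25th percentile floor. It also had 2 genes past 2-fold downward at the 25th percentile floor and 1 past 1.5-fold downward, against 0. The positive acute phase list had 22 positive ratios of 25 with the mean over probe sets, against 24, 6 genes past 2-fold without shared probe sets, against 9, and 14 past 1.5-fold, and the high-density lipoprotein and receptor lists had 1 each.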
